A study of Homo sapiens with 9 samples.

Results

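The mitotic genes described here are 42 genes whose proteins drive or check cell division, from the proliferation marker MKI67 to the cytokinesis protein ANLN, and they were taken by symbol from the 58920 genes listed for each library. They were followed in LIM1215, a RAS wild-type human colorectal cancer cell line that is initially sensitive to the anti-EGFR antibody cetuximab, and in LIM1215-R1 and LIM1215-R2, populations selected from it in parallel under rising cetuximab until they grew in the drug. The resistant lines are mixed populations and not single clones, and LIM1215-parental cells were kept in culture alongside them without cetuximab. RNA came from untreated cells of all 3 lines, with 3 libraries per line and 9 in all. The study's supplement calls the replicates technical, so p-values measure only the spread between these libraries. How the cells were grown or harvested cannot be told apart from what distinguishes the lines. In bulk RNA, fewer cells in mitosis and less RNA per mitotic cell cannot be told apart either.

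Entry into mitosis is driven by CDK1 bound to cyclin A or cyclin B, which CDC25 phosphatases activate and which Polo-like and Aurora kinases amplify. Kinetochores then attach chromosomes to spindle microtubules while the spindle checkpoint holds back the anaphase-promoting complex, and once this complex is active, separase cuts cohesin and the cell divides. Most genes of this programme are transcribed late in the cell cycle, through promoters with a CCAAT box and a cell cycle homology region (CHR) that MuvB complexes bind with B-MYB and FOXM1 or, in quiescent or arrested cells, as the repressive DREAM complex.

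Total counts lay between 13737416 and 18725014 per library, and 3 counts, taken as the floor, were worth 0.160 to 0.218 CPM, the count of a gene scaled to library size. All 42 genes passed the filter of at least 10 counts over the 9 libraries, since the lowest count of any of them in a library was 133 and the median was 1636. Of 10 colon epithelial markers 9 were tested and KRT20 was at 0 counts in all libraries, with a summed level of 12958 to 13256 CPM in parental, 15729 to 15919 in LIM1215-R1 and 14392 to 14865 in LIM1215-R2 libraries. Fibroblast markers, 2 of 7 tested, summed to 1.19 to 3.22 CPM, and COL1A2 and THY1 were at 0. Leukocyte markers, 2 of 8 tested, summed to at most 0.587 CPM, and PTPRC, CD3E, CD2 and MS4A1 were at 0. The higher sum of the epithelial markers came from KRT8, KRT18 and VIL1, which were called higher in both resistant lines, while EPCAM, CDX1, CDX2, LGALS4 and CDH17 were called lower in both, so that of the 9 tested 3 rose, 5 fell and CDH1 was not called. The part of the difference in epithelial markers in the results below was not tested.

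RefSeq promoter windows of GRCh38.p14, from 250 bases before to 50 after the start site, were at hand for 35 of the 42 genes. The CHR letters TTTGAA or TTCGAA were searched for on both strands and stood in 26 of the 35 windows (74.3%), against 16.6% of all 27305 promoters and 11.6% of the 12577 promoters of genes tested. CCAAT, also on either strand, stood in 26 of the 35 windows (74.3%), against 35.7% of all promoters and 35.9% of those of genes tested. Both motifs stood together in 21 windows (60%), against 6.58% of all promoters, and of 25 promoters of DNA replication and S phase genes 2 (8%) held both. The 9 windows with no CHR letters included those of CENPE, CDC25B, CDC25C, CCNA2 and CCNB1. A match says only that the letters are present, and no match says only that these exact letters are absent from that window.

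The 120 bases before the start site are shown for 6 members whose expression is described in detail, so that promoters of the same build can be set beside differing behaviour of their genes: MKI67 and KIF23, higher in both resistant lines, PLK1 and CCNB2, which separated the resistant lines, HMMR, lower in both, and CDC25B, higher in both with neither motif. They are written along the strand of the gene, and capitals mark the CHR letters and CCAAT or its reverse complement ATTGG. They come from chr10:128126424-128126543 (minus strand) for MKI67, chr15:69414229-69414348 (plus) for KIF23, chr16:23678769-23678888 (plus) for PLK1, chr15:59105026-59105145 (plus) for CCNB2, chr5:163460512-163460631 (plus) for HMMR and chr20:3786831-3786950 (plus) for CDC25B.
MKI67: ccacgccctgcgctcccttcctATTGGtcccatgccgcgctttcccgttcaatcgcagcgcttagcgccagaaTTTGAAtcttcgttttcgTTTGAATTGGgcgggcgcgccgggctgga
KIF23: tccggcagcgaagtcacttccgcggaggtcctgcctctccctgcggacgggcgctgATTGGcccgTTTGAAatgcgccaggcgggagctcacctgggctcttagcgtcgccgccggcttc
PLK1: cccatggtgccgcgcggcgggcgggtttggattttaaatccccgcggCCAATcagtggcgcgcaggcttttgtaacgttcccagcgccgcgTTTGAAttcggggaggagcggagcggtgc
CCNB2: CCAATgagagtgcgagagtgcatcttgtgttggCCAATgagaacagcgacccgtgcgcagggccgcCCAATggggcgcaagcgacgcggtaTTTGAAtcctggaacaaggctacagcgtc
HMMR: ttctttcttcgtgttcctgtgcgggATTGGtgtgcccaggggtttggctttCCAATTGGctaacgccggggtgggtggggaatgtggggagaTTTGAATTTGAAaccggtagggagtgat
CDC25B: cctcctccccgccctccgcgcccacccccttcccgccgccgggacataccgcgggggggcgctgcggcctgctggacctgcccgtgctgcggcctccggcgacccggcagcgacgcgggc
The first letter of the CHR nearest the gene stood 29 bases before the start site in MKI67, PLK1 and CCNB2, 22 in HMMR and 55 in KIF23. MKI67 and HMMR each held 2 CHR copies, and the second of MKI67 shares 1 base with the ATTGG that follows it. In HMMR a CCAAT and an ATTGG overlap as well. CCNB2 showed 3 copies of CCAAT, whose first letters stood 120, 87 and 54 bases before the start site. Genes with and without the CHR letters both moved up and down: of the 26 with them 8 were higher and 3 lower in LIM1215-R1 than in parental cells, and of the 9 without them 2 were higher and 1 lower.

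Per kilobase of transcript, the mitotic genes were well expressed in parental cells, with a median of 34.0 CPM per kb. CDC20, the activator of the anaphase-promoting complex, had the highest level at 136 CPM per kb, followed by UBE2C, the ubiquitin-conjugating enzyme of that complex, at 118, ECT2, which activates RhoA at the cleavage furrow, at 115, and CCNB1, cyclin B1, at 107. CENPE, the kinetochore kinesin, had the lowest at 5.25 CPM per kb and CDC25C the next lowest at 6.21. By rank among the genes with a length, these levels ran from percentile 49.8 for CENPE to 97.5 for CDC20, with a median of 86.8. Summed over the 42 genes, they took 0.593% to 0.650% of all counts of a library. Their summed level was 6125, 5880 and 6035 CPM in the parental libraries, 6568, 6225 and 6448 in LIM1215-R1 and 6505, 6444 and 6259 in LIM1215-R2. On this scale both resistant lines lay above parental cells without overlap, with means of 6414 ± 174 in LIM1215-R1 and 6403 ± 128 in LIM1215-R2 against 6013 ± 124 (SD, n = 3), but with total counts only as scaling LIM1215-R1 replicate 2, at 6127, fell within the parental range of 5925 to 6188. Abundant genes weigh most in this sum, and MKI67 alone had a mean of 700 CPM in parental cells, 803 in LIM1215-R1 and 866 in LIM1215-R2. By log2 fold change against parental cells, 29 of the 42 genes were positive and 13 negative in LIM1215-R1. In LIM1215-R2 21 were positive and 21 negative, so the sum does not describe most genes there.

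**Figure D1:**
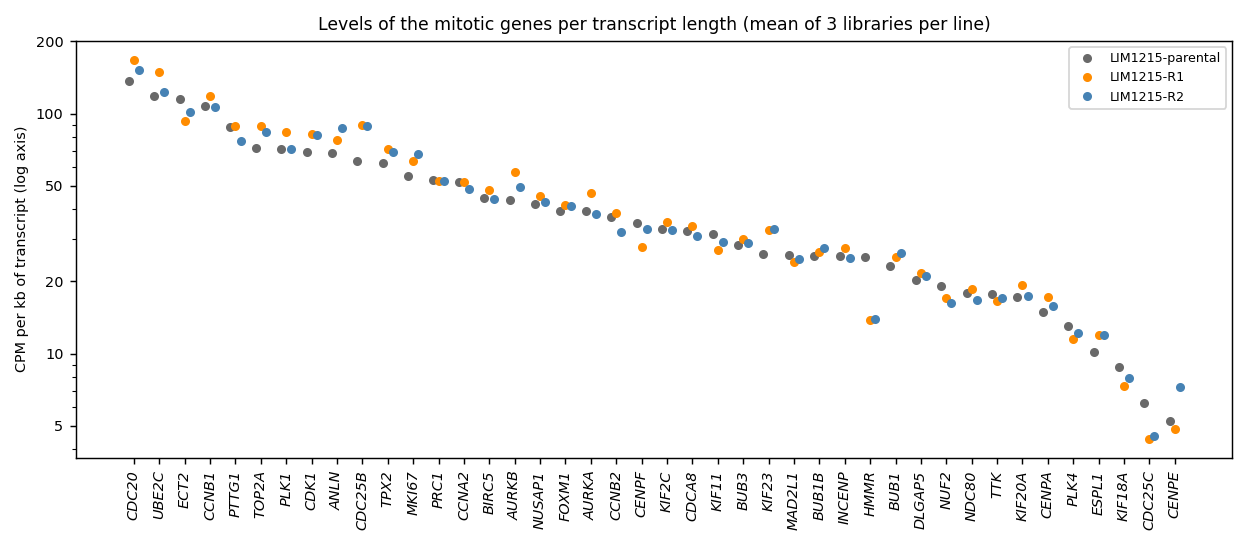
Mean CPM per kb of transcript (log axis) of each mitotic gene in the 3 lines, ordered by the level in parental cells. CDC20 leads at 136 and CENPE closes at 5.25 CPM per kb in parental cells, and HMMR and CDC25C stand out as lower in both resistant lines.

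Differences between the lines were small and went both ways. The comparison of LIM1215-R1 with parental cells called 13 of the 42 genes higher and 4 lower, and that of LIM1215-R2 called 10 higher and 2 lower. Calls required an adjusted p of 0.01 or less in edgeR's quasi-likelihood test, adjusted by Benjamini-Hochberg, from which all adjusted p-values below come. Fold changes are given on the log2 scale (log2FC). Over all 19102 genes tested, LIM1215-R1 had 14.0% higher and 13.4% lower, and LIM1215-R2 had 12.3% higher and 11.6% lower. Among the 6529 well counted genes, whose mean count per library was 500 or more, the shares were 22.1% and 19.9% for LIM1215-R1 and 19.8% and 16.9% for LIM1215-R2, so that the shares of mitotic genes called higher (31.0% and 23.8%) lay above those of well counted genes and the shares called lower (9.52% and 4.76%) below. This is a description without a test. The median log2FC over the 42 genes was 0.10 in LIM1215-R1 and 0.0046 in LIM1215-R2, beside -0.011 and -0.0037 over all genes tested, and 29 and 21 of the 42 had a positive value.

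No mitotic gene reached the threshold for a differentially expressed gene (DEG), an absolute log2FC of 1.5 or more together with such an adjusted p, in any comparison by edgeR or DESeq2. Over all genes tested, 5.14% were DEGs in LIM1215-R1, 4.82% in LIM1215-R2 and 0.764% between the resistant lines. Of the 6529 well counted genes, which are counted more like the mitotic genes, only 64, 63 and 2 were DEGs in these comparisons. At an unadjusted p under 0.05 the edgeR test counted 26 mitotic genes in LIM1215-R1, 19 in LIM1215-R2 and 18 between the resistant lines, all with an absolute log2FC under 1.5. The largest absolute log2FC was 0.87, that of HMMR. Both resistant lines are compared with the same 3 parental libraries. By these calls, 8 genes were higher and 2 lower in both lines. In LIM1215-R1 alone 5 were higher and 2 lower, and in LIM1215-R2 alone 2 were higher. Such overlaps were not counted over all genes tested, so these counts have no background beside them. With trends on transcript length and GC content removed, LIM1215-R1 had 19 higher and 4 lower, beside 17.1% and 14.6% of all genes tested, and LIM1215-R2 had 12 higher and 7 lower, beside 14.2% and 15.7%. With total counts only, LIM1215-R2 had 9 higher and 4 lower. Without LIM1215-R2 replicate 1 or replicate 2 the LIM1215-R2 call held for 6 genes as higher, and the number lower in LIM1215-R2 was 1 without parental replicate 3 or LIM1215-R2 replicate 2 and 4 without parental replicate 2, LIM1215-R1 replicate 1 or LIM1215-R1 replicate 2. Without parental replicate 2 the number lower in LIM1215-R1 was 7. Calls were gained too, since 9 genes in LIM1215-R1, 8 in LIM1215-R2 and 8 between the resistant lines were called in at least 1 of the 17 alternatives without being called here.

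**Figure D2:**
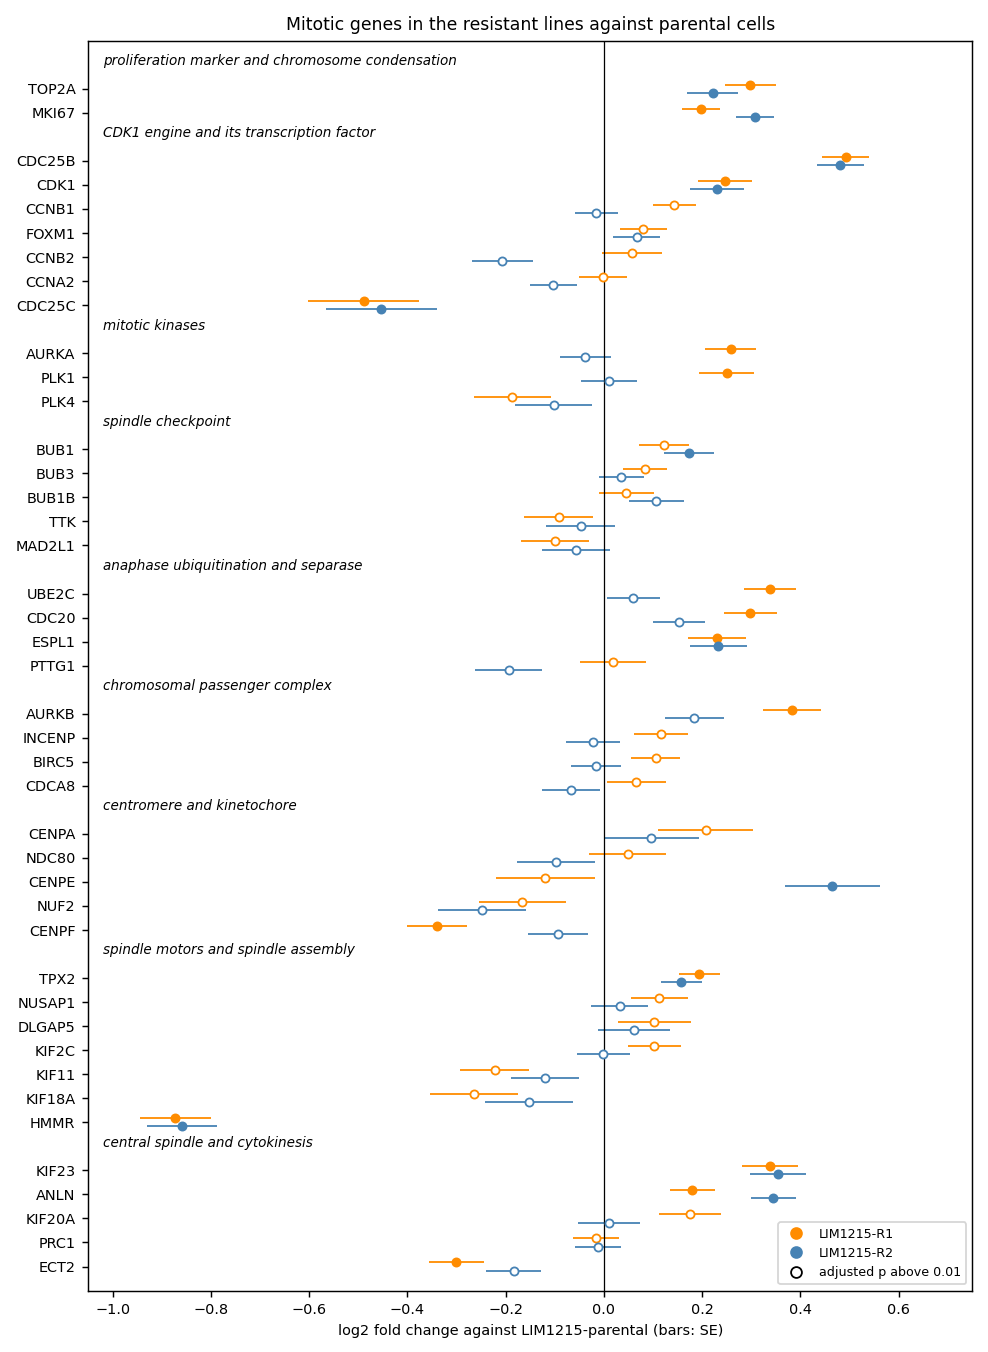
Log2 fold change of each of the 42 mitotic genes against LIM1215-parental with its SE, by role, for LIM1215-R1 (orange) and LIM1215-R2 (blue); filled points have an adjusted p of at most 0.01. HMMR lies farthest left in both lines and CDC25B farthest right, and AURKA, PLK1 and UBE2C are filled for LIM1215-R1 only.

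MKI67 and TOP2A, both widely used marks of cycling cells, were higher in both resistant lines. By ATP levels without cetuximab, the study saw no difference in growth between resistant and parental cells. Whether these RNA levels go with growth was not tested. MKI67, whose protein coats mitotic chromosomes, read 725, 697 and 678 CPM in the parental libraries, 828, 776 and 806 in LIM1215-R1 and 883, 876 and 840.3 in LIM1215-R2. It was lowest in parental cells and the lines did not overlap, but the resistant lines were not called as different (adjusted p = 0.0617). For MKI67, the log2FC was 0.20 ± 0.039 (SE, adjusted p = 0.000168) in LIM1215-R1 and 0.31 ± 0.039 (SE, adjusted p = 2.98e-07) in LIM1215-R2. With trends on length and GC content removed, MKI67 was at 0.32 ± 0.030 in LIM1215-R1 and 0.30 ± 0.029 in LIM1215-R2, and its difference between them was -0.02 ± 0.029. TOP2A, the topoisomerase that untangles sister chromatids, read 432, 382 and 419 CPM in the parental libraries, 541, 468 and 506 in LIM1215-R1 and 499, 487 and 451 in LIM1215-R2. All resistant libraries lay above all parental ones, and the resistant lines overlapped. The TOP2A log2FC was 0.30 ± 0.052 (SE, adjusted p = 4.00e-05) in LIM1215-R1 and 0.22 ± 0.052 (SE, adjusted p = 0.00134) in LIM1215-R2. The TOP2A call in LIM1215-R2 was lost without LIM1215-R2 replicate 1 (adjusted p = 0.0183) or replicate 2 (0.0131).

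Within the CDK1 engine, the kinase CDK1 and the phosphatase CDC25B were higher in both resistant lines, while CDC25C was lower in both and the cyclins were not called against parental cells. CDK1, the kinase that starts mitosis, read 131, 124 and 137 CPM in the parental libraries, 165, 147 and 155 in LIM1215-R1 and 163, 152 and 147 in LIM1215-R2. Every resistant library lay above every parental one. Against parental cells, CDK1 had a log2FC of 0.25 ± 0.055 (SE, adjusted p = 0.000671) in LIM1215-R1 and 0.23 ± 0.055 (SE, adjusted p = 0.00148) in LIM1215-R2. The call in LIM1215-R2 was lost without LIM1215-R2 replicate 1 (adjusted p = 0.0218). CDC25B (chr20:3786951-3806115, plus strand), which removes inhibitory phosphates from CDK1 at the centrosome, read 189.7, 209.9 and 196 CPM in the parental libraries, 270.0, 292 and 275 in LIM1215-R1 and 268, 279 and 284 in LIM1215-R2. The resistant lines overlapped each other and lay well above parental cells. For CDC25B, the log2FC was 0.49 ± 0.048 (SE, adjusted p = 2.70e-09) in LIM1215-R1 and 0.48 ± 0.048 (SE, adjusted p = 4.15e-09) in LIM1215-R2. CDC25B had the largest increase of the mitotic genes in LIM1215-R1. In LIM1215-R2 it was close to CENPE (0.46), which was the larger with trends on length and GC content removed, at 0.45 ± 0.061 against 0.44 ± 0.033.

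CDC25C, the related phosphatase that acts as cells enter mitosis, read 12.4, 13.3 and 13.3 CPM in the parental libraries, 9.02, 8.54 and 10.2 in LIM1215-R1 and 10.3, 8.24 and 9.86 in LIM1215-R2. Both resistant lines lay below parental cells and overlapped each other. The CDC25C log2FC was -0.49 ± 0.11 (SE, adjusted p = 0.000983) in LIM1215-R1 and -0.45 ± 0.11 (SE, adjusted p = 0.00221) in LIM1215-R2. The LIM1215-R2 call was lost without parental replicate 3 (adjusted p = 0.0121) or LIM1215-R2 replicate 2 (0.0275), and counts of this gene were among the lowest of the 42. CCNB1, the cyclin that carries CDK1 into mitosis, read 215, 224 and 214 CPM in the parental libraries, 235, 243 and 243 in LIM1215-R1 and 212, 213 and 220.0 in LIM1215-R2. LIM1215-R1 lay above the overlapping parental and LIM1215-R2 libraries, but neither comparison with parental cells passed the threshold. Against parental cells, CCNB1 had a log2FC of 0.14 ± 0.044 (SE, adjusted p = 0.0108) in LIM1215-R1 and -0.02 ± 0.044 (SE, adjusted p = 0.839) in LIM1215-R2. CCNB1 was called higher in LIM1215-R1 in 8 of the 17 alternatives. The partner cyclins CCNA2 and CCNB2 had log2FC values of -0.0015 and 0.06 in LIM1215-R1 and -0.10 and -0.21 in LIM1215-R2, and FOXM1, a transcription factor of late cell cycle genes, 0.08 and 0.07, none of them called, although CCNB2 was called lower in LIM1215-R2 in 6 alternatives and CCNA2 in 1.

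The mitotic kinases AURKA and PLK1 were higher in LIM1215-R1 than in parental cells, and LIM1215-R2 showed no such call. AURKA, the Aurora kinase of centrosomes and spindle poles, read 80.5, 80.8 and 78.0 CPM in the parental libraries, 94.4, 95.8 and 95.7 in LIM1215-R1 and 77.7, 78.7 and 76.5 in LIM1215-R2. LIM1215-R1 stood alone above the other lines. For AURKA, the log2FC was 0.26 ± 0.052 (SE, adjusted p = 0.000222) in LIM1215-R1 and -0.04 ± 0.052 (SE, adjusted p = 0.647) in LIM1215-R2. PLK1, the Polo-like kinase of mitotic entry and spindle formation, read 145, 166 and 149 CPM in the parental libraries, 173, 193 and 179 in LIM1215-R1 and 151, 148 and 163 in LIM1215-R2. LIM1215-R1 lay above both other lines, which overlapped. The PLK1 log2FC was 0.25 ± 0.056 (SE, adjusted p = 0.000819) in LIM1215-R1 and 0.01 ± 0.057 (SE, adjusted p = 0.919) in LIM1215-R2. The PLK1 call in LIM1215-R1 was lost without parental replicate 1 (adjusted p = 0.0110). PLK4, the kinase of centriole duplication, had log2FC values of -0.19 and -0.10 that did not pass.

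Of 5 spindle checkpoint genes BUB1 alone was called, as higher in LIM1215-R2 (20%, beside 19.8% of well counted genes). BUB1, a checkpoint kinase of the kinetochore, read 88.9, 86.0 and 87.0 CPM in the parental libraries, 96.7, 93.3 and 95.0 in LIM1215-R1 and 98.3, 97.6 and 99.5 in LIM1215-R2. All resistant libraries lay above all parental ones by a narrow margin. Against parental cells, BUB1 had a log2FC of 0.12 ± 0.051 (SE, adjusted p = 0.0642) in LIM1215-R1 and 0.17 ± 0.051 (SE, adjusted p = 0.00896) in LIM1215-R2. The LIM1215-R2 call stood at the threshold and was lost without any 1 of the parental or LIM1215-R2 libraries or without LIM1215-R1 replicate 3 (adjusted p = 0.0149 to 0.0343). BUB1B, the checkpoint protein BUBR1, read 95.8, 92.6 and 93.1 CPM in the parental libraries, 104, 91.4 and 95.6 in LIM1215-R1 and 105, 101 and 97.3 in LIM1215-R2. LIM1215-R1 overlapped with parental cells, LIM1215-R2 lay narrowly above them, and neither was called. For BUB1B, the log2FC was 0.05 ± 0.056 (SE, adjusted p = 0.581) in LIM1215-R1 and 0.11 ± 0.055 (SE, adjusted p = 0.154) in LIM1215-R2. The other checkpoint genes, BUB3, MAD2L1 and TTK, had log2FC values between -0.10 and 0.08, none of them called. With trends on length and GC content removed, BUB1 and BUB3 were called higher in LIM1215-R1 as well, at 0.17 ± 0.042 and 0.21 ± 0.036.

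In the anaphase group, CDC20, UBE2C and the separase gene ESPL1 were higher in LIM1215-R1, and ESPL1 also in LIM1215-R2. CDC20 read 219, 243 and 213 CPM in the parental libraries, 258, 294 and 277 in LIM1215-R1 and 242, 249.6 and 259 in LIM1215-R2. LIM1215-R1 lay above parental cells without overlap, while LIM1215-R2 replicate 1 lay just under the highest parental library. The CDC20 log2FC was 0.30 ± 0.053 (SE, adjusted p = 5.16e-05) in LIM1215-R1 and 0.15 ± 0.053 (SE, adjusted p = 0.0272) in LIM1215-R2. UBE2C read 91.9, 91.5 and 92.1 CPM in the parental libraries, 108, 121 and 119 in LIM1215-R1 and 95.7, 93.4 and 98.1 in LIM1215-R2. LIM1215-R1 lay above both other lines. Against parental cells, UBE2C had a log2FC of 0.34 ± 0.054 (SE, adjusted p = 1.13e-05) in LIM1215-R1 and 0.06 ± 0.054 (SE, adjusted p = 0.457) in LIM1215-R2. ESPL1, the protease that cuts cohesin at anaphase, had log2FC values of 0.23 ± 0.059 (SE, adjusted p = 0.00254) in LIM1215-R1 and 0.23 ± 0.059 (SE, adjusted p = 0.00257) in LIM1215-R2. Both ESPL1 calls were lost without parental replicate 3 (adjusted p = 0.0163 and 0.0167), the first also without LIM1215-R1 replicate 2 (0.0234) or replicate 3 (0.0105) and the second without LIM1215-R2 replicate 2 (0.0182). PTTG1, the securin that holds separase back, had 0.02 and -0.19 and was not called.

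Of the chromosomal passenger complex, which corrects faulty attachments and later directs cytokinesis, the kinase AURKB was called higher in LIM1215-R1 and its 3 partners were not called. AURKB read 52.7, 54.7 and 55.5 CPM in the parental libraries, 66.4, 72.0 and 73.8 in LIM1215-R1 and 61.6, 60.4 and 63.0 in LIM1215-R2. Both resistant lines lay above parental cells without overlap, LIM1215-R1 the higher. For AURKB, the log2FC was 0.38 ± 0.059 (SE, adjusted p = 7.80e-06) in LIM1215-R1 and 0.18 ± 0.060 (SE, adjusted p = 0.0184) in LIM1215-R2. INCENP, the scaffold of the complex, read 101, 112 and 100.4 CPM in the parental libraries, 109, 118 and 112 in LIM1215-R1 and 103, 104 and 101 in LIM1215-R2. Parental cells overlapped with both resistant lines, and all LIM1215-R1 libraries lay above those of LIM1215-R2, a difference not called (-0.14, adjusted p = 0.101). The INCENP log2FC was 0.12 ± 0.055 (SE, adjusted p = 0.103) in LIM1215-R1 and -0.02 ± 0.055 (SE, adjusted p = 0.807) in LIM1215-R2. BIRC5 (survivin) and CDCA8 (borealin) had log2FC values of 0.11 and 0.07 in LIM1215-R1 and -0.02 and -0.07 in LIM1215-R2.

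The kinetochore genes CENPE and CENPF, which encode very large proteins, changed in different lines. CENPE (chr4:103105811-103198343, minus strand), a motor that moves chromosomes to the spindle equator, read 45.3, 41.0 and 48.2 CPM in the parental libraries, 46.6, 32.3 and 45.4 in LIM1215-R1 and 66.5, 65.8 and 53.8 in LIM1215-R2. LIM1215-R2 lay above both other lines, which overlapped. Against parental cells, CENPE had a log2FC of -0.12 ± 0.10 (SE, adjusted p = 0.402) in LIM1215-R1 and 0.46 ± 0.097 (SE, adjusted p = 0.000393) in LIM1215-R2. DESeq2 gave no call for CENPE in LIM1215-R2 (adjusted p = 0.0170). CENPF, a kinetochore and nuclear matrix protein, read 381, 334 and 368 CPM in the parental libraries, 307, 247 and 302 in LIM1215-R1 and 353, 343 and 319.6 in LIM1215-R2. LIM1215-R1 lay below parental cells and LIM1215-R2 overlapped with them. For CENPF, the log2FC was -0.34 ± 0.062 (SE, adjusted p = 6.84e-05) in LIM1215-R1 and -0.09 ± 0.061 (SE, adjusted p = 0.275) in LIM1215-R2. With trends on length and GC content removed the LIM1215-R1 value of CENPF was -0.18 ± 0.038, still called. CENPA, the histone H3 variant of centromeres, and NDC80 and NUF2, subunits of the complex that grips microtubules, had log2FC values of 0.21, 0.05 and -0.17 in LIM1215-R1 and 0.10, -0.10 and -0.25 in LIM1215-R2, none called.

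**Figure D3:**
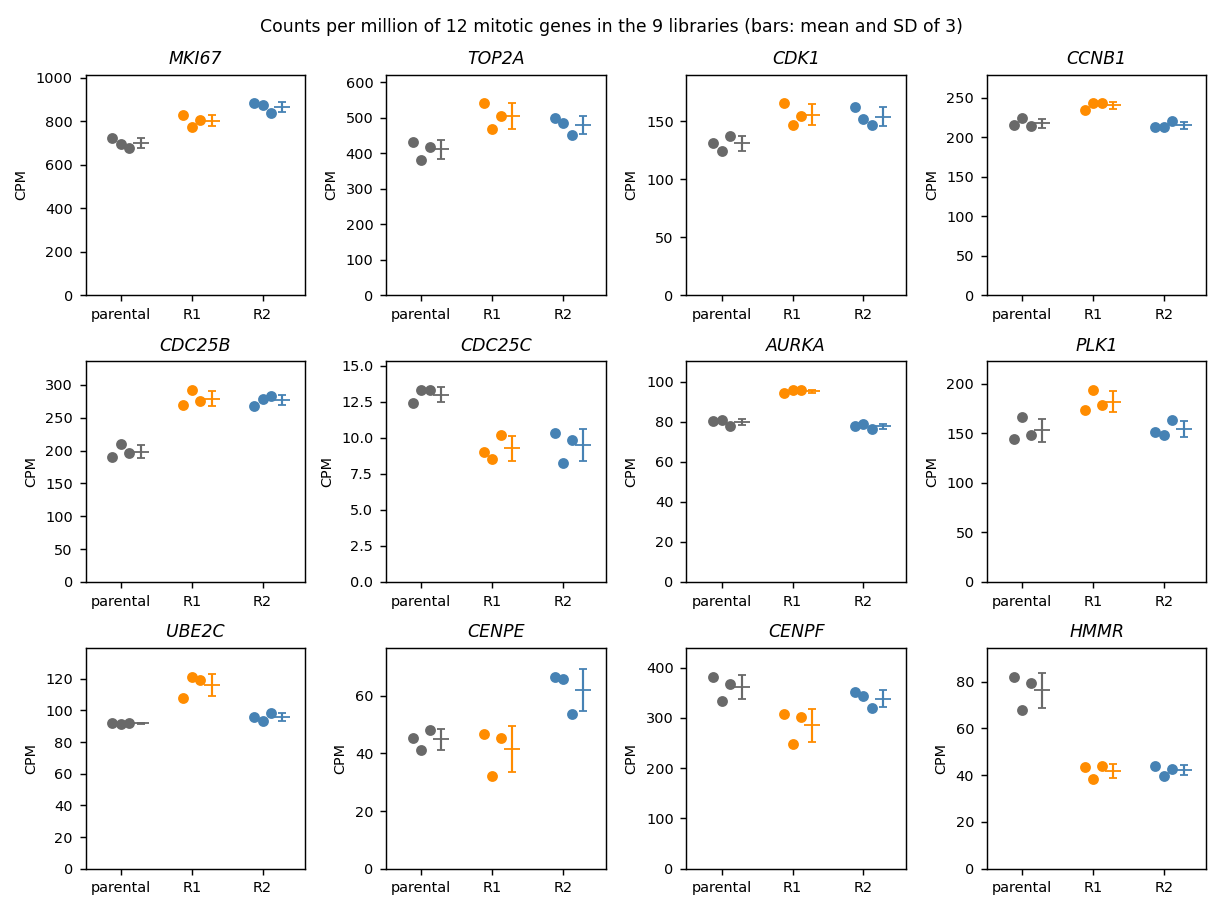
CPM of 12 mitotic genes in each of the 9 libraries (points) with the mean and SD of the 3 libraries of a line (bars); all axes start at 0. HMMR drops from 76.4 CPM in parental cells to 41.8 and 42.2 in the resistant lines, AURKA and UBE2C are highest in LIM1215-R1, and CENPE is highest in LIM1215-R2.

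HMMR, a microtubule-binding spindle assembly factor that was first described as a hyaluronan receptor, showed the largest change of all 42 genes and fell in both resistant lines. The gene lies on the plus strand at chr5:163460632-163491941. It read 82.0, 67.9 and 79.2 CPM in the parental libraries, 43.3, 38.3 and 43.7 in LIM1215-R1 and 43.9, 39.8 and 42.9 in LIM1215-R2. The lowest parental library lay far above the highest resistant one, and the resistant lines were nearly superimposed. The HMMR log2FC was -0.87 ± 0.072 (SE, adjusted p = 1.15e-10) in LIM1215-R1 and -0.86 ± 0.072 (SE, adjusted p = 1.49e-10) in LIM1215-R2. Both calls held in all 17 alternative analyses, with log2FC values from -0.95 to -0.78 in LIM1215-R1 and from -0.93 to -0.81 in LIM1215-R2. An antisense gene, HMMR-AS1, overlaps its exons on the other strand, and the libraries were stranded and counted by strand. KIF18A, a kinesin that damps chromosome movement, read 30.4, 26.0 and 33.3 CPM in the parental libraries, 25.8, 23.9 and 25.3 in LIM1215-R1 and 28.4, 28.9 and 23.8 in LIM1215-R2. LIM1215-R1 lay just under the parental range, and LIM1215-R2 overlapped with it. Against parental cells, KIF18A had a log2FC of -0.26 ± 0.090 (SE, adjusted p = 0.0221) in LIM1215-R1 and -0.15 ± 0.089 (SE, adjusted p = 0.216) in LIM1215-R2.

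Among the other spindle genes, TPX2, which activates AURKA on microtubules, had log2FC values of 0.19 in LIM1215-R1 (adjusted p = 0.000526) and 0.16 in LIM1215-R2 (adjusted p = 0.00427). The second call was lost without parental replicate 1 or 3 or LIM1215-R2 replicate 1 or 2 (adjusted p = 0.0138 to 0.0255). KIF11, the motor that separates spindle poles, KIF2C, a kinesin that takes microtubules apart, NUSAP1 and DLGAP5, both microtubule-bundling proteins, had values between -0.22 and 0.11, and none was called.

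At the central spindle and cleavage furrow, KIF23 and ANLN were higher in both resistant lines and ECT2 was lower in LIM1215-R1. KIF23, the kinesin of the centralspindlin complex, read 99.4, 85.9 and 98.8 CPM in the parental libraries, 125, 114 and 121 in LIM1215-R1 and 124, 121 and 119 in LIM1215-R2. Every resistant library lay above every parental one. For KIF23, the log2FC was 0.34 ± 0.057 (SE, adjusted p = 2.75e-05) in LIM1215-R1 and 0.35 ± 0.057 (SE, adjusted p = 1.52e-05) in LIM1215-R2. ANLN, the scaffold of the contractile ring, read 329, 310.0 and 329.9 CPM in the parental libraries, 386, 349 and 363 in LIM1215-R1 and 425, 418 and 388 in LIM1215-R2. The lines followed each other without overlap, parental cells lowest and LIM1215-R2 highest, although the resistant lines were not called as different except in 6 alternatives. The ANLN log2FC was 0.18 ± 0.046 (SE, adjusted p = 0.00287) in LIM1215-R1 and 0.34 ± 0.046 (SE, adjusted p = 8.92e-07) in LIM1215-R2. The ANLN call in LIM1215-R1 was lost with total counts only and without parental replicate 2 (adjusted p = 0.0126) or LIM1215-R1 replicate 1 (0.0223) or 3 (0.0111). ECT2 had log2FC values of -0.30 in LIM1215-R1 (adjusted p = 9.85e-05) and -0.18 in LIM1215-R2 (adjusted p = 0.0122), of which the second did not pass but was called in 8 of the 17 alternatives. With trends on length and GC content removed ECT2 was at -0.20 ± 0.031 in LIM1215-R1 and -0.22 ± 0.031 in LIM1215-R2, both called as lower. KIF20A and PRC1, which build the central spindle, were not called, at 0.17 and -0.02 in LIM1215-R1 and 0.01 and -0.01 in LIM1215-R2.

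The direct comparison asks where the resistant lines differ from each other. In LIM1215-R2 against LIM1215-R1, 4 mitotic genes were lower, CCNB2, AURKA, PLK1 and UBE2C, and 2 were higher, CENPE and CENPF, beside 3.77% lower and 3.39% higher among all genes tested (5.64% and 6.28% of well counted genes). The median over the 42 was -0.04. CCNB2, cyclin B2, read 54.5, 55.6 and 54.7 CPM in the parental libraries, 60.4, 56.5 and 54.6 in LIM1215-R1 and 45.0, 48.5 and 49.3 in LIM1215-R2, so that all LIM1215-R2 libraries lay below the rest. Its log2FC between the resistant lines was -0.26 ± 0.062 (SE, adjusted p = 0.00441). AURKA differed by -0.30 ± 0.052 (SE, adjusted p = 0.000209) and UBE2C by -0.28 ± 0.054 (SE, adjusted p = 0.000632). For PLK1 the difference was -0.24 ± 0.056 (SE, adjusted p = 0.00444).

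The higher genes were CENPE, at 0.58 ± 0.098 (SE, adjusted p = 0.000123), and CENPF, at 0.25 ± 0.062 (SE, adjusted p = 0.00759). In LIM1215-R1 replicate 2 CENPE and CENPF read 32.3 and 247 CPM, below the other 2 libraries of the line (46.6 and 45.4 CPM for CENPE, 307 and 302 CPM for CENPF). AURKA and CENPE kept their calls in all 17 alternatives. CCNB2 lost it without LIM1215-R1 replicate 1 (adjusted p = 0.0235) or LIM1215-R2 replicate 1 (0.0493) or 2 (0.0181). PLK1 lost it without LIM1215-R1 replicate 2 (0.0277) or 3 (0.0182) or LIM1215-R2 replicate 1 (0.0371) or 2 (0.0520), and UBE2C without LIM1215-R2 replicate 2 (0.0104). For CENPF the call was lost without parental replicate 3 (0.0105), LIM1215-R1 replicate 2 (0.0591) or 3 (0.0127) or LIM1215-R2 replicate 1 (0.0748) or 2 (0.0536). By these losses the counts fell to 1 gene higher and 1 lower without LIM1215-R2 replicate 2.

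The 6 genes that separated the resistant lines also differed in length. CENPF and CENPE have transcripts of 10.3 and 8.54 kb, whereas UBE2C, CCNB2, AURKA and PLK1 have 0.777, 1.49, 2.03 and 2.16 kb. Over the 42 genes, the log2FC between the resistant lines was higher for longer transcripts (Spearman's rho 0.74) and lower for transcripts of higher GC content (-0.52), as a description across genes that share the same libraries. Over 6490 well counted genes rho was 0.48 with length and -0.38 with GC content, and over all 16478 tested genes with a length it was 0.16 and -0.20. Of the 21 mitotic genes with the shorter transcripts (up to 3016 bases) 4 were lower and none higher, and of the 21 longer ones 2 were higher and none lower. Against parental cells the 42 genes had rho of -0.23 in LIM1215-R1 and 0.26 in LIM1215-R2 with length. With GC content their rho was 0.55 in LIM1215-R1 and 0.27 in LIM1215-R2. Over the 6490 well counted genes, rho was -0.25 and 0.011 with length and 0.24 and 0.028 with GC content.

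Within a line, deviations of single libraries also varied with length, with rho over the 42 genes from -0.51 in LIM1215-R2 replicate 3 to 0.45 in LIM1215-R2 replicate 2 when each library was set against the mean of its line. When each library's trends on length and GC content over all genes were removed, 1 mitotic gene was higher and 9 were lower in LIM1215-R2 than in LIM1215-R1, beside 3.14% and 6.95% of all genes tested. CENPE kept a difference of 0.37 ± 0.063, and CENPF, at 0.07 ± 0.038, lost its call. AURKA (-0.30 ± 0.043), CCNB2 (-0.24 ± 0.053), UBE2C (-0.21 ± 0.041) and PLK1 (-0.20 ± 0.038) stayed called as lower. TOP2A, BUB3, CCNB1, CCNA2 and INCENP were called lower under this setting as well.

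**Figure D4:**
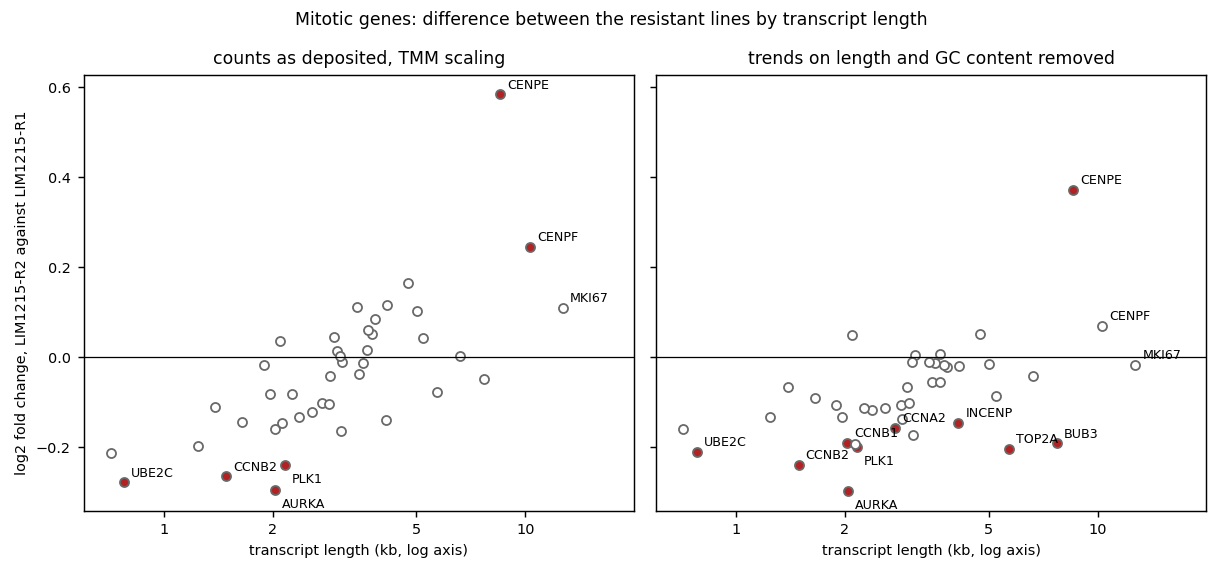
Log2 fold change of LIM1215-R2 against LIM1215-R1 for the 42 mitotic genes against transcript length (kb, log axis), from the counts as deposited (left) and with each library's trends on length and GC content removed (right); red points have an adjusted p of at most 0.01. On the left the points tend to rise with length, with CENPE at 0.58 and CENPF at 0.25, while MKI67, the longest at 12.7 kb, lies at 0.11. On the right CENPE stands alone at 0.37.

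Other genes of mitosis, in 6 lists with 117 genes of which 116 were tested (SKA1 was under the filter), gave 18 higher and 26 lower in LIM1215-R1, 14 higher and 12 lower in LIM1215-R2, and 12 higher and none lower in LIM1215-R2 against LIM1215-R1. These shares of 15.5% and 22.4%, 12.1% and 10.3%, and 10.3% and 0% stand beside 22.1% and 19.9%, 19.8% and 16.9%, and 6.28% and 5.64% of well counted genes, and the counts of single lists rest on few genes. Their median log2FC values were -0.04, 0.04 and 0.04. Cohesin and its regulators gave 1 higher and 5 lower of 12 in LIM1215-R1, led by PDS5B at -0.55 ± 0.062 and NIPBL at -0.40 ± 0.059, and 2 lower in LIM1215-R2. Of 31 further kinetochore genes 1 was higher and 8 lower in LIM1215-R1, among them KNL1, the platform of the outer kinetochore, at -0.47 ± 0.067, and LIM1215-R2 had 3 higher and 5 lower. Of 17 genes of the anaphase-promoting complex and its helpers 3 were higher and 2 lower in LIM1215-R1 and 4 higher and 1 lower in LIM1215-R2. UBE2S, the E2 enzyme that extends the ubiquitin chains begun by UBE2C, had the largest increase of these lists in LIM1215-R1, at 0.69 ± 0.072, and was at 0.42 ± 0.073 in LIM1215-R2.

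Among 31 spindle, centrosome and cytokinesis genes, 6 were higher and 8 lower in LIM1215-R1 (19.4% and 25.8%). In LIM1215-R2 5 were higher and 2 lower (16.1% and 6.45%). The well counted genes had 22.1% higher and 19.9% lower in LIM1215-R1, and 19.8% and 16.9% in LIM1215-R2. The abscission protein CEP55 rose in both lines, at 0.49 ± 0.060 and 0.49 ± 0.060, as did CKAP2L, at 0.53 ± 0.073 and 0.45 ± 0.074, and the kinesin KIF20B fell, at -0.59 ± 0.084 and -0.30 ± 0.083. Of 17 regulators of mitotic entry and exit 6 were higher and 2 lower in LIM1215-R1 (35.3% and 11.8%). In LIM1215-R2 2 were higher and 1 lower (11.8% and 5.88%). The phosphatase CDC14B fell in both lines, at -0.67 ± 0.071 and -0.71 ± 0.071. The 8 condensin genes gave 1 higher and 1 lower in LIM1215-R1 (12.5% each), NCAPG at 0.26 ± 0.055 and SMC2 at -0.28 ± 0.062. In LIM1215-R2 NCAPH alone was lower (12.5%), at -0.19 ± 0.055.

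The 30 genes of DNA replication and S phase, the stage before mitosis, gave 4 higher and 4 lower in LIM1215-R1, 6 higher and 3 lower in LIM1215-R2 and none between the resistant lines, where the list median was 0.04. The ribonucleotide reductase subunit RRM2 rose in both lines, at 0.44 ± 0.040 and 0.44 ± 0.040, and the helicase subunit MCM5 fell, at -0.38 ± 0.053 and -0.26 ± 0.053. Of the 18 tested genes of the DREAM and MuvB complexes and their upstream repressors (CDKN1C was under the filter), 2 were higher and 3 lower in LIM1215-R1 and 2 higher and 2 lower in LIM1215-R2. These were 11.1% and 16.7% in LIM1215-R1 and 11.1% and 11.1% in LIM1215-R2, below the shares of well counted genes. LIN9, a MuvB subunit, fell in both, at -0.57 ± 0.084 and -0.48 ± 0.083.

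CDKN1A, the p53 target p21 that inhibits cyclin-dependent kinases and through which p53 engages DREAM, read 108, 119 and 107 CPM in the parental libraries, 373, 421 and 368 in LIM1215-R1 and 209.7, 220.3 and 216 in LIM1215-R2. The 3 lines did not overlap, LIM1215-R1 being highest and parental cells lowest. The log2FC was 1.80 ± 0.054 (SE, adjusted p = 7.05e-20) in LIM1215-R1, 0.95 ± 0.054 (SE, adjusted p = 5.66e-14) in LIM1215-R2 and -0.85 ± 0.052 (SE, adjusted p = 3.93e-12) in LIM1215-R2 against LIM1215-R1. It was the single DEG of these lists, in LIM1215-R1. E2F7, a repressor of cell cycle genes, read 64.2, 62.5 and 66.1 CPM in the parental libraries, 67.8, 65.4 and 68.0 in LIM1215-R1 and 67.1, 69.6 and 62.8 in LIM1215-R2. The 3 lines overlapped and no call was made. Against parental cells, E2F7 had a log2FC of 0.06 ± 0.058 (SE, adjusted p = 0.474) in LIM1215-R1 and 0.05 ± 0.058 (SE, adjusted p = 0.590) in LIM1215-R2. Of the 42 mitotic genes, 23 had their highest mean CPM in LIM1215-R1 and 11 had their lowest there. Parental cells held the highest mean of 12 and the lowest of 20, and LIM1215-R2 the highest of 7 and the lowest of 11. This count has no test and no like count over all genes beside it, and it includes genes that were not called. A link of these means with CDKN1A was not tested.

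**Figure D5:**
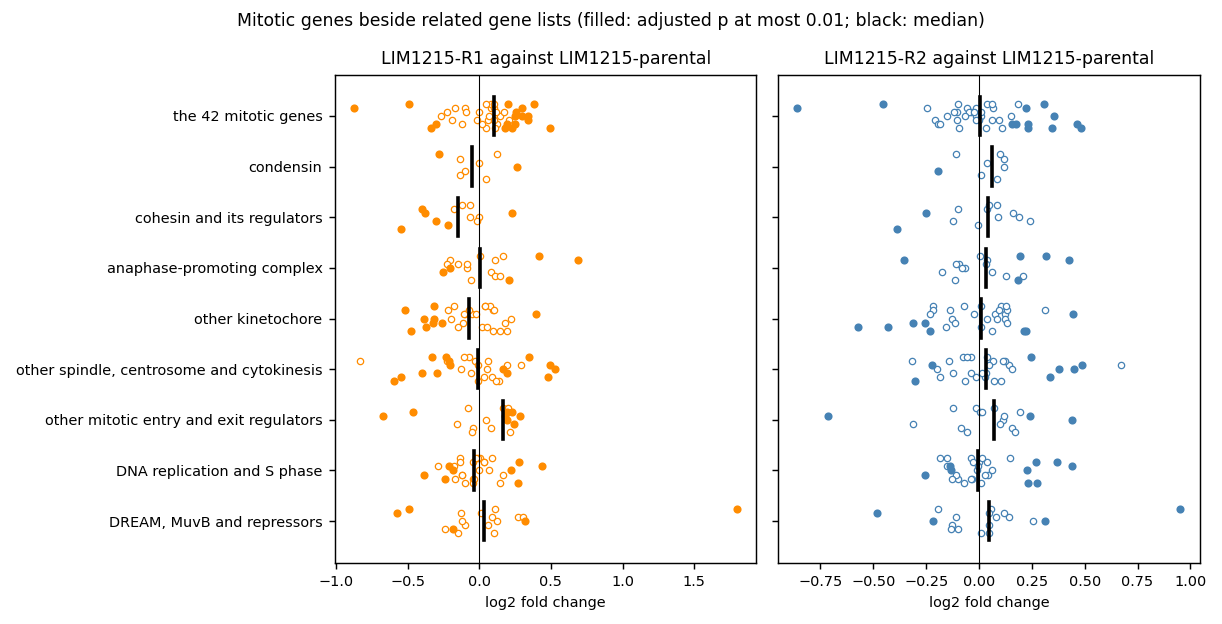
Log2 fold change against LIM1215-parental of the genes of each list in LIM1215-R1 (left) and LIM1215-R2 (right); filled points have an adjusted p of at most 0.01 and black bars are list medians. CDKN1A lies far right at 1.80 and 0.95, and HMMR leads the decrease of the 42 mitotic genes at -0.87 and -0.86.

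Some of these counts carry limits of annotation. Exons of BUB1B, CENPA, NUSAP1 and PRC1 overlap another gene on the same strand, and MKI67, CCNB2, AURKA, BUB1, BUB3, MAD2L1, CDC20, UBE2C, AURKB and DLGAP5 have annotated pseudogenes, so that reads shared with those copies make their counts uncertain. The spread between the libraries of a line was a median of 5.01% of the mean over the 42 genes, with a range from 0.311% to 19.2%.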

How the data were processed

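Poly(A) RNA of untreated cells went into stranded libraries, 3 per line. The authors used STAR for alignment to hg38 and HTSeq 0.9.1, set to the reverse strand, for counting, and deposited a raw count per gene and library, without normalization or rows of unassigned reads. Libraries were grouped by line from the labels, and total counts were 13737416 to 18725014.

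The analysis used edgeR 4.0.16 in R 4.3.3. Genes whose counts summed to 10 or more over all 9 libraries (19102 of 58920) were scaled with TMM and entered into 1 quasi-likelihood fit with line as the factor, and p-values were adjusted by Benjamini-Hochberg over all of them. An adjusted p of 0.01 or less made a call, and a call with an absolute log2 fold change (log2FC) of 1.5 or more was a DEG. Each SE is the log2FC divided by the root of the F statistic, and CPM use the TMM factors. Replicates of a line differed beyond sampling noise (chi-square per degree of freedom 1.82 to 6.04), and each was entered as 1 sample. This spread does not make them independent samples of a line, since the study calls them technical.

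The 42 members, their role lists and the related gene lists were chosen with earlier results of these data known. Values of every library are given for MKI67, TOP2A, CDK1, CCNB1, AURKA, PLK1 and, in each role list, the 2 genes with the largest absolute log2 fold change in any comparison. CCNB2 was added after its values were seen. From the other lists, genes called with the largest changes in a direction are named, and CDKN1A and E2F7 as known repressors. Of that rule only a selection is printed.

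Positions and promoters came from RefSeq on GRCh38.p14, and length and GC content from the canonical transcripts of GENCODE release 44, which covered 86.3% of genes tested and all 42 members. Trends were fitted per library as lowess curves with a span of 0.3 and used as offsets. The alternatives were other filters, DESeq2 1.42.0 and its size factors, total counts, fits to 6 libraries, the replicate number as a block, GC and length trends, and leaving out each library. The fit was tested on simulated data first. The floor of 3 counts covers counting error only, whereas each SE includes the spread between libraries.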

Additional observations from a re-analysis of the deposited data

Results flagged for a closer look

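The following 6 mitotic genes were singled out because the resistant lines differed in the direct edgeR test, with an adjusted p of 0.01 or less. In LIM1215-R2 against LIM1215-R1, CCNB2 had a log2FC of -0.26, AURKA of -0.30, PLK1 of -0.24 and UBE2C of -0.28, all lower in LIM1215-R2. CENPE had 0.58 and CENPF 0.25, both higher in LIM1215-R2. The transcripts of the lower genes are 0.777 to 2.16 kb long and those of the higher genes 8.54 and 10.3 kb, and the part of length in these values was tested only by the fit with length and GC trends removed, under which CENPF was at 0.07 and the other 5 kept their calls.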

How the results depend on the processing

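The 35 calls of single mitotic genes kept their direction in all 17 alternatives. Of the 595 values so obtained 551 stayed past the threshold and 44 did not, and 21 of the 35 calls held in every alternative (14 of 17 in LIM1215-R1, 5 of 12 in LIM1215-R2 and 2 of 6 between the resistant lines). No mitotic gene was a DEG in any alternative, nor at a log2 fold change of at least 1. With GC and length trends removed, 19 genes were called in LIM1215-R2 (7 lower) and 10 between the resistant lines (1 higher, 9 lower), with a median of -0.096 there. With total counts only, 4 were lower in LIM1215-R2 and the median in LIM1215-R1 was 0.068. With at least 10 counts in every library, 1 gene was higher between the resistant lines. Correlations of deviations between libraries of different lines were -0.11 to 0.27 with the same replicate number and -0.26 to 0.19 with differing numbers. Whether the numbers mark pairs was not tested. With the replicate block 6 genes were lower in LIM1215-R2, beside 13.2% of all genes tested, and 10 were called between the resistant lines (7 lower). Of all genes tested, 5.37% were then higher and 5.33% lower between the resistant lines. Leaving out 1 library at a time gave 15 to 20 calls in LIM1215-R1 (11 to 13 higher, 4 to 7 lower), 7 to 14 in LIM1215-R2 (6 to 10 higher, 1 to 4 lower) and 2 to 8 between the resistant lines (1 to 3 higher, 1 to 5 lower). The median of LIM1215-R2 changed sign, between -0.011 and 0.017 without 1 library and -0.012 with total counts only. The cause of these changes was not tested.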
